A study of Mus musculus with 4 samples.

Results

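DNA interstrand crosslinks and double-strand breaks are repaired by proteins that act in succession. The Fanconi core complex recognises a crosslink and attaches ubiquitin to FANCI and FANCD2, nucleases open the DNA, and homologous recombination then copies the sister chromatid under BRCA1, BRCA2 and the proteins of strand exchange. Breaks can instead be rejoined directly, by classical end joining through the Ku proteins and DNA ligase IV or by alternative end joining through DNA polymerase theta. Recombination needs a replicated chromatid and so belongs to cycling cells, whereas quiescent HSCs rely largely on end joining, and loss of Fanconi genes leads to bone marrow failure in people and to HSC loss in mice.

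The genes described here are 39 members of these pathways, found by symbol among the 19354 rows of the deposited table. All 39 had a row, and all 39 passed the filter of a mean level of 1 CPM (reads scaled to an equal total per library) over the 4 libraries, so that none was lost to low values. By role they comprise 8 core complex genes, the pair of FANCI and FANCD2, 5 BRCA-associated genes, 7 genes of end resection, 5 genes of strand exchange, 2 junction nuclease genes, 6 genes of classical end joining, 2 of end protection and 2 of alternative end joining.

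The libraries came from bone marrow HSCs sorted as LSK FLT3- CD48- CD150+ cells of mice aged 8 to 16 weeks, 2 weeks after pIpC. All animals carried *Mx1-Cre*, in which an interferon-inducible promoter drives the recombinase in many cell types besides HSCs, and both genotypes received pIpC. Cells of 14 *Id2*+/+ and of 15 *Id2* fl/fl mice (*Id2*Δ/Δ after deletion) were pooled over 2 experiments into 2 libraries per genotype, numbered replicates 1 and 2, so each library is a pool and p-values measure only the spread between pools. The labels do not say which experiment gave which library.

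As far as the low values allow it to be read, the depth lay between 14500000 and 18200000 reads per library, the *Id2*Δ/Δ pools being the deeper. *Id2* itself had 93 and 98 reads in the controls and 0 in both *Id2*Δ/Δ libraries, where a count of 0 allows up to 3 reads. All 12 HSC markers were present in every library, and their summed level was 4880 and 4780 CPM in *Id2*+/+ against 3450 and 3970 CPM in *Id2*Δ/Δ HSCs. Summed neutrophil markers were at 52.9 to 145 CPM in *Id2*+/+ and 26.4 to 110 CPM in *Id2*Δ/Δ, with 1 of the 9 genes at 0 reads in each *Id2*Δ/Δ library. Erythroid markers lay between 43.9 and 69.9 CPM, those of macrophages between 36.4 and 43.5 CPM, those of B cells between 36.8 and 54.0 CPM and those of T cells between 22.7 and 26.2 CPM, with 3 of 7 B-cell and 2 of 6 T-cell genes having a row. Megakaryocyte genes, many of which HSCs also express, were at 454 and 510 CPM in *Id2*+/+ and at 513 and 598 CPM in *Id2*Δ/Δ. In bulk samples, fewer cells of a type and less RNA per cell cannot be told apart, and the part of these markers in the results below was not tested.

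The levels of the 39 genes spanned a wide range. On the log2 CPM scale the mean over the 4 libraries ran from 1.35 to 7.87, with 4 genes under 10 CPM, 29 between 10 and 100 CPM and 6 above 100 CPM. Expressed per kilobase of the longest transcript, *Parp1* was the most abundant at 60.4 CPM per kb, higher than 93.0% of tested genes. It encodes a sensor of DNA breaks that also takes part in alternative end joining. *Xrcc6*, which encodes the Ku70 subunit that binds broken ends, followed at 32.1 CPM per kb, and *Rif1*, which restrains resection together with 53BP1, at 25.4 CPM per kb. The lowest were *Lig4*, the ligase of classical end joining, at 0.668 CPM per kb, *Rad51c*, a gene of strand exchange, at 0.790 CPM per kb, and *Bard1*, the partner of BRCA1, at 1.46 CPM per kb. The median member stood at percentile 50.7 of all tested genes on this scale.

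**Figure D1:**
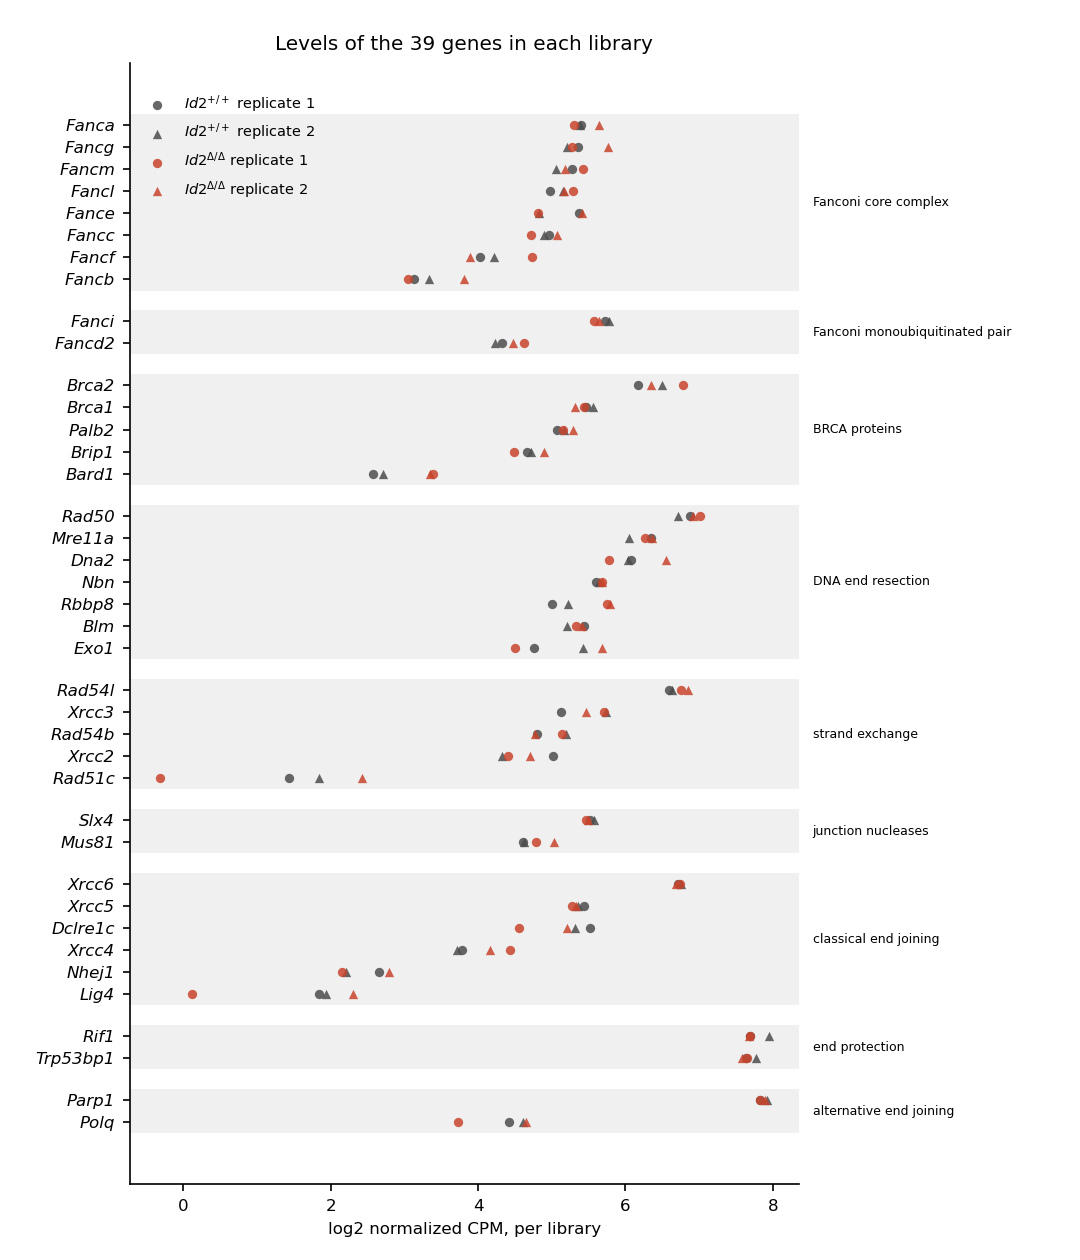
Level of each of the 39 genes (log2 normalized CPM, horizontal axis) in the 4 libraries, grouped by role; grey symbols are *Id2*+/+ and red symbols *Id2*Δ/Δ libraries, circles replicate 1 and triangles replicate 2. *Rad51c* and *Lig4* sit lowest and are the genes whose *Id2*Δ/Δ replicates lie farthest apart, while *Parp1*, *Rif1* and *Trp53bp1* sit highest with their 4 points close together.

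To ask whether loss of *Id2* altered the transcripts of these pathways, the genotypes were compared with limma over 15895 genes. None of the 39 genes had an adjusted p-value under 0.05, with 0.910 the smallest and 0.0% of all tested genes called. The deleted gene *Id2* was among the tested genes and was not called either, with 93 and 98 reads against 0 in both *Id2*Δ/Δ libraries. The absence of a call therefore does not show that a gene is unchanged. Without adjustment, 3 of the 39 (7.7%) were under 0.05, beside 4.67% of all tested genes. These were *Rbbp8*, *Bard1* and *Xrcc4*, all higher in *Id2*Δ/Δ HSCs. The genotypes did not overlap in 14 genes. In 9 (23.1%) the *Id2*Δ/Δ pair was the higher, beside 19.0% of all tested genes, and in 5 (12.8%) the lower, beside 15.8%. The median log2 fold change over the 39 was 0.05, with 23 genes higher and 16 lower, where all tested genes had a median of 0.01. It was 0.14 without *Id2*Δ/Δ replicate 1 and -0.05 without *Id2*Δ/Δ replicate 2, so 1 library decided its sign.

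**Figure D2:**
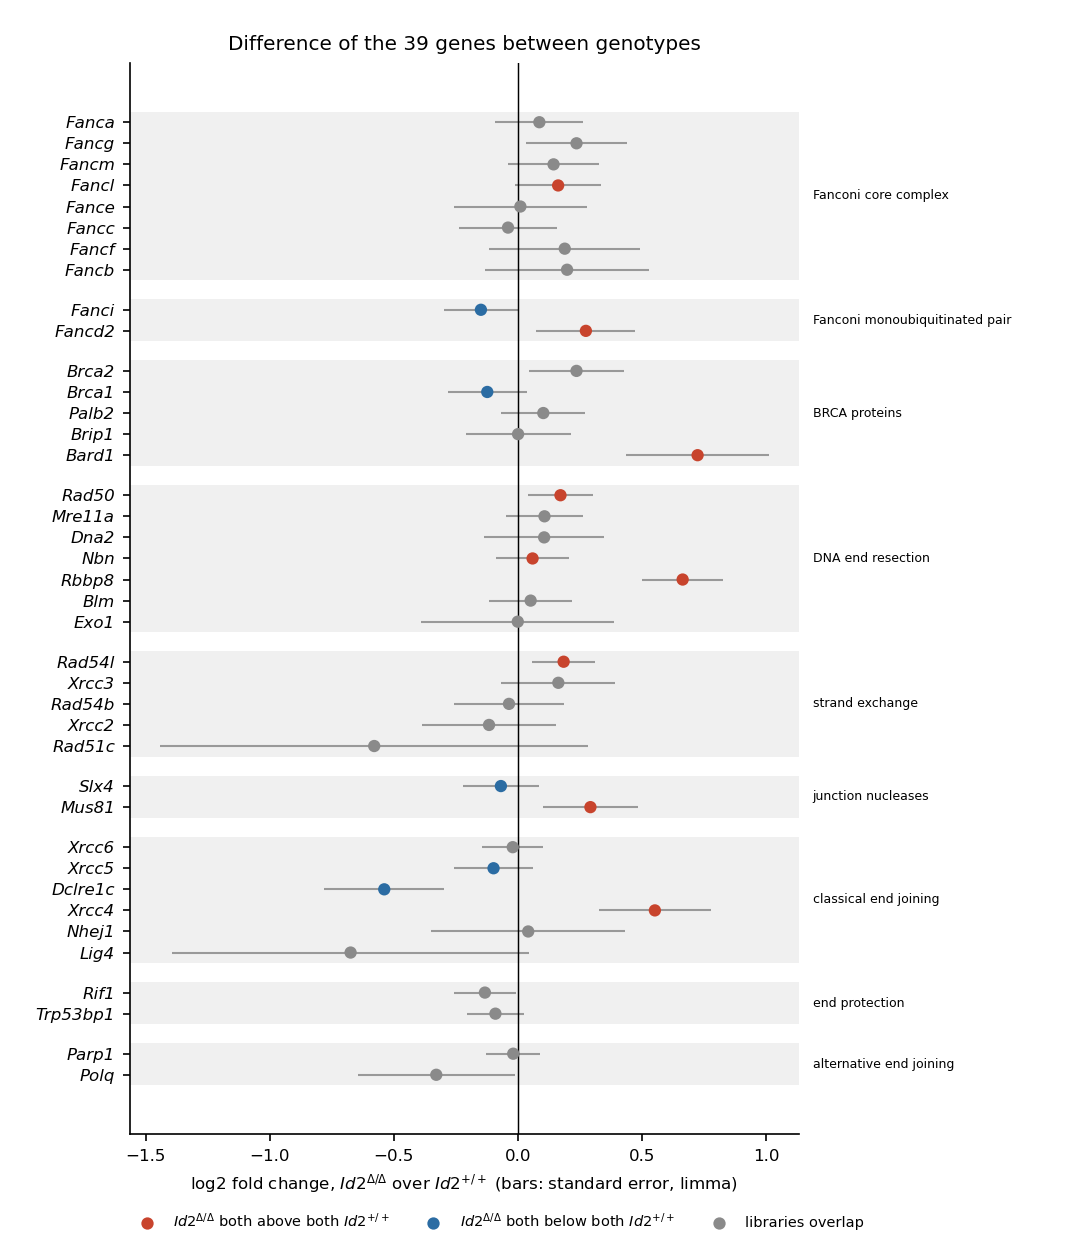
Log2 fold change of each gene in *Id2*Δ/Δ over *Id2*+/+ HSCs (horizontal axis) with its standard error from limma as a bar, n = 2 libraries per genotype; genes with non-overlapping genotypes are red where *Id2*Δ/Δ was higher and blue where it was lower, and grey points overlap. *Bard1*, *Rbbp8* and *Xrcc4* lie farthest to the right and *Dclre1c* is the blue point farthest to the left, and *Rad51c* and *Lig4* carry the widest bars.

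Genes of the Fanconi core complex, the ubiquitin ligase assembly of the pathway, had no direction that both *Id2*Δ/Δ libraries shared. The median log2 fold change of the 8 was 0.15 with 7 above 0, but it was -0.05 with 3 above 0 when *Id2*Δ/Δ replicate 2 was left out. In 7 of the 8 the libraries of the genotypes overlapped, as they did in 10365 of all 15895 tested genes. The exception was *Fancl*, the catalytic ubiquitin ligase, at 4.98 and 5.15 log2 CPM in *Id2*+/+ and 5.28 and 5.17 in *Id2*Δ/Δ, a log2 fold change of 0.16. The scaffold gene *Fanca* was at 5.399 and 5.379 in *Id2*+/+ and at 5.31 and 5.64 in *Id2*Δ/Δ, so its *Id2*Δ/Δ replicates lay on either side of the controls. The same held for *Fancc*, at 4.97 and 4.90 against 4.72 and 5.07. *Fancg*, an adaptor of the complex, was at 5.35 and 5.21 in the controls, with 1 *Id2*Δ/Δ library between them at 5.27 and the other above at 5.76. *Fancm*, the translocase that anchors the complex to DNA, was at 5.27 and 5.05 in *Id2*+/+ and 5.43 and 5.18 in *Id2*Δ/Δ. *Fancf* and *Fancb* spread more widely between the *Id2*Δ/Δ libraries, at 4.73 and 3.88 for *Fancf* and 3.04 and 3.81 for *Fancb*, against 4.03 and 4.21 and 3.12 and 3.33 in the controls. *Fance* split both genotypes, with 5.37 and 4.83 in *Id2*+/+ and 4.81 and 5.41 in *Id2*Δ/Δ.

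The substrates of the core complex differed in opposite directions. *Fancd2*, whose ubiquitination marks an active pathway, was at 4.32 and 4.23 log2 CPM in *Id2*+/+ and 4.63 and 4.48 in *Id2*Δ/Δ libraries, a log2 fold change of 0.27 (SE 0.20, 95% interval -0.19 to 0.74), with a limma p of 0.211 before and 0.910 after adjustment. *Fanci*, its partner, was at 5.73 and 5.77 in *Id2*+/+ and 5.57 and 5.64 in *Id2*Δ/Δ, a log2 fold change of -0.15 (95% interval -0.50 to 0.20). In neither gene did the libraries overlap, and both intervals include 0. Exons of *Fanci* share 921 bases with *Polg* on the opposite strand and those of *Fancd2* share 257 bases with *Fancd2os*, and whether strand was used in counting is not given in the sources used here. In all, 21 of the 39 genes share exon bases with another gene.

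Among the BRCA-associated genes *Bard1* stood apart. It encodes the RING partner that BRCA1 needs for stability and for its ubiquitin ligase activity. The low level allowed its reads to be recovered, with 86 and 104 in the controls and 183 and 184 after *Id2* deletion, or 2.57 and 2.71 against 3.38 and 3.35 log2 CPM. Both *Id2*Δ/Δ values were thus above both controls and close to each other. The log2 fold change was 0.72 (SE 0.29), or 1.65-fold, with a limma p of 0.0379 before and 0.910 after adjustment. Fits on any 3 libraries gave 0.65 to 0.79. *Bard1* (ENSMUSG00000026196.7) occupies bases 71027498 to 71103146 of chromosome 1 (GRCm38, minus strand), and none of its exon bases are shared with another annotated gene.

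*Brca1*, by contrast, was at 5.46 and 5.55 log2 CPM in *Id2*+/+ and 5.44 and 5.32 in *Id2*Δ/Δ libraries, a log2 fold change of -0.12 (95% interval -0.50 to 0.25). Its *Id2*Δ/Δ libraries lay below both controls, the nearest pair being 5.44 and 5.46. *Brca2*, a central mediator of recombination, overlapped between genotypes, with 6.17 and 6.495 in *Id2*+/+ and 6.78 and 6.35 in *Id2*Δ/Δ. *Palb2*, the bridge between BRCA1 and BRCA2, was at 5.07 and 5.16 against 5.15 and 5.28, and the helicase gene *Brip1* at 4.66 and 4.71 against 4.48 and 4.89.

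The promoter of *Bard1* is shown because it belongs to the member with the largest difference between non-overlapping genotypes. The annotated gene begins at base 71103146, upstream of the RefSeq start used here, so part of the printed sequence lies inside it. The window that also takes in the 50 bases after the RefSeq start holds 2 matches to TTTNNCGC, a pattern that E2F sites share. The 250 bases before that start (GRCm38.p6, chr1:71102973-71103222, minus strand, 5′ to 3′) hold 1, in capitals at position -209 from the start.
*Bard1*: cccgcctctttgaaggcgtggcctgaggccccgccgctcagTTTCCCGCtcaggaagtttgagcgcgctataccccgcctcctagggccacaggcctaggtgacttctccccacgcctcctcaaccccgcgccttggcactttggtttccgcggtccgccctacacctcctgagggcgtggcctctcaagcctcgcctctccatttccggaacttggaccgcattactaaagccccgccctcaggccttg
In windows of 250 bases before to 50 after a RefSeq start, TTTNNCGC on either strand was present in 8 of 34 member windows (23.5%, from 7 members) and in 5.2% of 32851 windows of all genes. Besides *Bard1*, the members with it were *Brca2*, *Brip1*, *Dna2*, *Fancg*, *Rad51c* and *Xrcc6*, all with overlapping genotypes and log2 fold changes from -0.58 to 0.24. CCAAT, a common element of cell-cycle promoters, was in 52.9% of member windows and 37.4% of all windows. The HIF response cores ACGTG and GCGTG were in 11 and 17 of the 34 member windows, against 19.6% and 32.4% of all windows. A match describes letters only, and base composition was not matched between these sets.

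The genes of DNA end resection, in which nucleases trim a break to single strands before recombination, were led by *Rbbp8*. It encodes CtIP, the cofactor that starts resection with the MRE11 nuclease. *Rbbp8* (ENSMUSG00000041238.15) was at 5.0 and 5.22 log2 CPM in *Id2*+/+ and at 5.76 and 5.79 in *Id2*Δ/Δ libraries, with the genotypes apart by more than either pair of replicates. The log2 fold change was 0.66 (SE 0.16, 95% interval 0.28 to 1.05), or 1.58-fold, with a limma p of 0.00438 before and 0.910 after adjustment. It ranged from 0.56 to 0.77 over fits on 3 libraries, and was 0.72 after correction for transcript length. Exons of *Rbbp8* share 402 bases with AC090479.2, an annotated gene on the opposite strand that has no row of its own here.

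The MRE11 complex, which tethers the ends and recruits CtIP, did not show a difference of that size. *Rad50* was at 6.87 and 6.71 in *Id2*+/+ and 7.01 and 6.91 in *Id2*Δ/Δ, a log2 fold change of 0.17 (95% interval -0.13 to 0.47). *Nbn* was at 5.60 and 5.64 against 5.68 in both *Id2*Δ/Δ libraries, a log2 fold change of 0.06 (95% interval -0.29 to 0.40), and *Mre11a* at 6.35 and 6.05 against 6.26 and 6.35. The genotypes were apart for *Rad50* and *Nbn*, whereas for *Mre11a* they overlapped. The nuclease genes of long-range resection, *Dna2* and *Exo1*, were the variable ones. *Dna2*, a nuclease and helicase, was at 6.08 and 6.04 in *Id2*+/+ but 5.78 and 6.55 in *Id2*Δ/Δ, and *Exo1*, an exonuclease of S phase, at 4.76 and 5.42 against 4.50 and 5.67. In *Exo1* replicate 2 exceeded replicate 1 in both genotypes, and the genotype means were 5.09 and 5.09. *Blm*, the helicase mutated in Bloom syndrome, stayed within 5.21 to 5.43 in all 4 libraries.

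Strand exchange genes had no common direction, with 2 of 5 higher and a median log2 fold change of -0.04. *Rad54l*, a DNA translocase that promotes invasion of the sister duplex, was at 6.59 and 6.64 in *Id2*+/+ and 6.75 and 6.85 in *Id2*Δ/Δ, a log2 fold change of 0.18 (95% interval -0.11 to 0.48) without overlap. Its exons share 1184 bases with *Lrrc41* on the opposite strand. *Xrcc3* was at 5.12 and 5.73 against 5.71 and 5.47, and *Xrcc2* at 5.02 and 4.32 against 4.41 and 4.70, so in both the *Id2*+/+ replicates differed more than the genotypes. *Rad54b* was at 4.80 and 5.19 against 5.14 and 4.77, and 2068 of its exon bases are shared with *Fsbp* on the same strand. Of the nucleases that cut joint molecules, *Mus81* was at 4.61 and 4.63 in *Id2*+/+ and 4.79 and 5.03 in *Id2*Δ/Δ, a log2 fold change of 0.29 (SE 0.19, 95% interval -0.15 to 0.74, limma adjusted p = 0.910). The scaffold *Slx4* was at 5.52 and 5.57 against 5.47 and 5.49, a log2 fold change of -0.07 (95% interval -0.43 to 0.29). *Mus81* shares 173 exon bases with *Efemp2* on the opposite strand.

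*Rad51c* differed most between replicates of 1 genotype. Its reads numbered 40 and 57 in the controls but 13 and 95 after *Id2* deletion, or 1.44, 1.83, -0.32 and 2.43 log2 CPM in that order. The *Id2*Δ/Δ libraries thus gave both the lowest and the highest value. The ratio of replicate 2 to replicate 1 in *Id2*Δ/Δ HSCs was 7.19 per read of depth (exact 95% interval 4.01 to 13.99), an interval that covers counting error only. A gap as large between the *Id2*Δ/Δ replicates was seen in 3.33% of 2495 tested genes with a mean of 2 to 6 CPM. The log2 fold change between genotypes was -0.58 (95% interval -2.60 to 1.44), and it was 0.79 without *Id2*Δ/Δ replicate 1.

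Among the genes of classical end joining, the Ku genes, whose products encircle broken ends, differed by at most 0.10 log2 units between genotypes. *Xrcc6* (Ku70) was at 6.71 and 6.76 in *Id2*+/+ and 6.74 and 6.69 in *Id2*Δ/Δ, and *Xrcc5* (Ku80) at 5.44 and 5.36 against 5.27 and 5.33, where the genotypes did not overlap. The 95% intervals of their log2 fold changes were -0.31 to 0.27 and -0.47 to 0.27. *Xrcc4*, the scaffold that binds DNA ligase IV, was at 3.78 and 3.71 in *Id2*+/+ and 4.43 and 4.17 in *Id2*Δ/Δ, with 196 and 205 reads in the controls. Both *Id2*Δ/Δ libraries were above both controls, with a log2 fold change of 0.55 (SE 0.23), or 1.46-fold, and a limma p of 0.0432 before and 0.910 after adjustment. Leaving out 1 library at a time gave 0.42 to 0.68. *Xrcc4* (ENSMUSG00000021615.13) occupies bases 89774027 to 90089608 of chromosome 13 (GRCm38, minus strand), and shares 112 exon bases with *Tmem167*.

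*Lig4*, the ligase that XRCC4 stabilises, was counted by 53 and 61 reads in *Id2*+/+ and by 19 and 86 reads in *Id2*Δ/Δ libraries, or 1.84 and 1.93 against 0.12 and 2.30 log2 CPM. As for *Rad51c*, replicate 1 of *Id2*Δ/Δ was the lowest of the 4 and replicate 2 the highest, with a depth-adjusted ratio of 4.45 (exact 95% interval 2.69 to 7.75). A gap as large was found in 6.53% of the 2495 genes at that level. The log2 fold change of *Lig4*, -0.67 (95% interval -2.36 to 1.009), became 0.42 without *Id2*Δ/Δ replicate 1. *Nhej1*, which encodes the XLF cofactor, had 91 and 74 reads in *Id2*+/+ and 79 and 125 in *Id2*Δ/Δ, with the genotypes overlapping.

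*Dclre1c* had the largest negative difference among genes whose genotypes did not overlap. It encodes Artemis, the nuclease that opens hairpins and trims ends. *Dclre1c* was at 5.52 and 5.32 log2 CPM in *Id2*+/+ and 4.56 and 5.21 in *Id2*Δ/Δ, a log2 fold change of -0.54 (SE 0.24), with a limma p of 0.0587 before and 0.910 after adjustment. Replicate 1 of *Id2*Δ/Δ carried most of the difference, which was -0.21 without it and -0.86 without replicate 2. After correction for transcript length it was -0.45. Exons of *Dclre1c* share 357 bases with *Suv39h2* on the opposite strand.

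The E-box CANNTG is the motif of the E proteins that ID proteins sequester, and the promoter of *Dclre1c* is printed because among the members with full values and a window here it alone held one. The 250 bases before its start (GRCm38.p6, chr2:3423881-3424130, plus strand) contain CAGCTG at positions -147 and -129, in capitals.
*Dclre1c*: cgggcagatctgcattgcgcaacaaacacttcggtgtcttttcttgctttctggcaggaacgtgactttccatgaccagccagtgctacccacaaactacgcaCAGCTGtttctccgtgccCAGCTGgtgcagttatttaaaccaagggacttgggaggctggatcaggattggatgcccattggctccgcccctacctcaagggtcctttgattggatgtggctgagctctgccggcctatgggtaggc
No CANNTG was found in the 250 bases before the starts of *Bard1*, *Xrcc4* or *Mus81*. Over all 34 member windows, CANNTG was present in 58.8%, beside 72.3% of all windows, and CAGCTG, which is one of its forms, in 20.6%, beside 16.3%. The 6 members with CAGCTG were *Dclre1c*, *Dna2*, *Fancb*, *Lig4*, *Palb2* and *Slx4*, whose log2 fold changes ran from -0.67 to 0.20. No window was given for *Exo1*, *Fancd2*, *Nbn*, *Rad50*, *Rad54b*, *Rbbp8*, *Rif1* and *Xrcc2*.

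Of the genes of end protection and alternative end joining, the abundant *Trp53bp1*, *Rif1* and *Parp1* differed little between genotypes. *Trp53bp1*, which encodes the 53BP1 shield against resection, was at 7.64 and 7.77 in *Id2*+/+ and 7.65 and 7.58 in *Id2*Δ/Δ, a log2 fold change of -0.09 (95% interval -0.36 to 0.18) that became 0.04 after correction for transcript length. Its exons share 2130 bases with *Tubgcp4* on the opposite strand. *Rif1* was at 7.69 and 7.95 against 7.70 and 7.67, a log2 fold change of -0.13 (95% interval -0.43 to 0.16). *Parp1* was at 7.83 and 7.92 against 7.83 and 7.89, with a 95% interval of -0.27 to 0.24. *Polq*, which encodes DNA polymerase theta, was at 4.42 and 4.61 in *Id2*+/+ but 3.72 and 4.65 in *Id2*Δ/Δ, so that only replicate 1 lay below the controls. Its log2 fold change was -0.33 (95% interval -1.07 to 0.41) and 0.14 without that replicate.

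**Figure D3:**
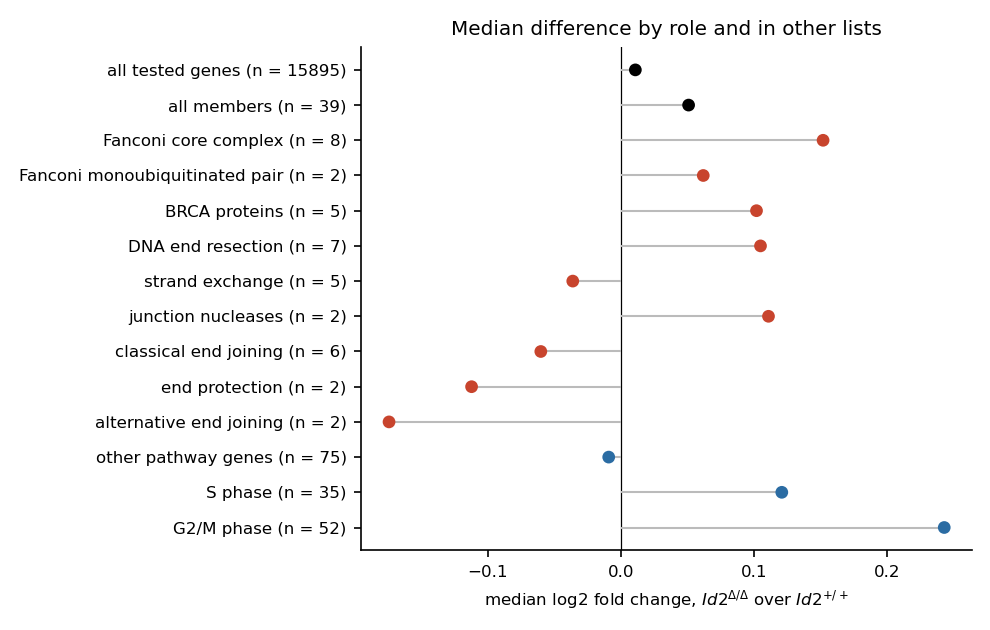
Median log2 fold change in *Id2*Δ/Δ over *Id2*+/+ HSCs (horizontal axis) for all tested genes and all 39 members (black), for the members by role (red), and for other lists (blue), with the number of tested genes in brackets. Roles range from 0.15 for the Fanconi core complex to -0.17 for alternative end joining, and the G2/M list lies to the right of every role at 0.24.

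Read by role, medians were above 0 for the core complex (0.15), BRCA-associated genes (0.10) resection (0.11, with 6 of 7 genes higher), FANCI and FANCD2 (0.06, 1 of 2) and junction nucleases (0.11, 1 of 2). They were below 0 for strand exchange (-0.04, 2 of 5), classical end joining (-0.06, 2 of 6), end protection (-0.11, 0 of 2) and alternative end joining (-0.17, 0 of 2). Several signs rested on 1 library, and that of strand exchange also on the filter. With a filter of 10 CPM, which *Rad51c* did not pass, the strand exchange median was 0.06 over 4 genes. Without *Id2*Δ/Δ replicate 1 the medians were 0.04 for strand exchange, 0.16 for classical end joining and 0.07 for alternative end joining. Without *Id2*Δ/Δ replicate 2 those of the core complex and of strand exchange were -0.05 and 0.13, and without *Id2*+/+ replicate 2 that of strand exchange was 0.16. Differences varied with transcript length, with a median of -0.09 over 2803 coding genes above 5000 bases and 0.13 over 1354 below 1500 bases. Of the 39 genes 16 exceed 5000 bases, and with each library corrected for length the median of end protection was 0.01 and that of the resection genes 0.12. Lists of the cell cycle were higher beside the members, with a median of 0.12 over 35 S-phase genes (29 higher) and 0.24 over 52 G2/M genes (48 higher). Of these, 0 and 11 genes had an unadjusted limma p-value under 0.05, beside 4.67% of all tested genes, and none was called. Without overlap, 31.4% of the S-phase and 53.8% of the G2/M genes were higher, beside 19.0% of all tested genes. Lower without overlap were 5.7% and 0.0%, beside 15.8%. The part of cycling or of transcript length in the values of *Bard1*, *Rbbp8* and *Xrcc4* was not tested, beyond the length-corrected log2 fold changes of 0.78, 0.72 and 0.56.

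Other genes of the same pathways, in a list of 81 symbols of which 75 had a row and were tested, divided evenly by sign. Of the 75, 37 were higher and 38 lower with a median of -0.01. Without overlap, 19 (25.3%) were higher, beside 19.0% of all tested genes, and 11 (14.7%) lower, beside 15.8%. In limma 0 were called, 3 having an unadjusted p-value under 0.05, beside 4.67% of all tested genes. Among genes that were higher without overlap, the smallest p-values belonged to *Rpa3*, a subunit of the single-strand binding protein RPA, *H2afx*, the histone phosphorylated at breaks, and *Rad52*. *Rpa3* was at 4.95 and 4.83 in *Id2*+/+ and 5.57 and 5.25 in *Id2*Δ/Δ (log2 fold change 0.52). *H2afx* was at 6.198 and 6.195 in the controls and 6.45 and 6.49 in *Id2*Δ/Δ (0.27), and *Rad52* at 5.09 and 5.38 against 5.88 and 5.42 (0.42). On the lower side were *Rev3l*, the catalytic subunit of translesion polymerase zeta, at 6.15 and 6.36 against 5.75 and 5.73 (-0.51), the Fanconi-associated nuclease *Fan1* at 3.47 and 3.14 against 2.35 and 2.41 (-0.93), and *Tdp2* at 6.08 and 5.89 against 5.74 and 5.68 (-0.27). Each of these 6 had an adjusted p-value of 0.910 from limma.

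The spread between replicates set the limit of the comparison. The *Id2*Δ/Δ replicates differed by more than 0.5 log2 units in 10 of the 39 genes (25.6%), beside 29.0% of all tested genes, and the *Id2*+/+ replicates in 4 (10.3%), beside 18% of all tested genes. In 9 of the 10 genes replicate 2 of *Id2*Δ/Δ was the higher, where over the 4605 tested genes with such a gap it was the higher in 51.7%. The 9 were *Rad51c*, *Lig4*, *Exo1*, *Polq*, *Dna2*, *Fancb*, *Dclre1c*, *Nhej1* and *Fance*, and the exception was *Fancf*. They belong to different roles, from the core complex to end joining, and were singled out here after their values were seen. In all of the 10 but *Dclre1c*, and in 17 of the 39 members, the direction of the difference between genotypes turned on which *Id2*Δ/Δ library was used. The share of all tested genes in which it did so was not determined, so the count is not a trait of these members.

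**Figure D4:**
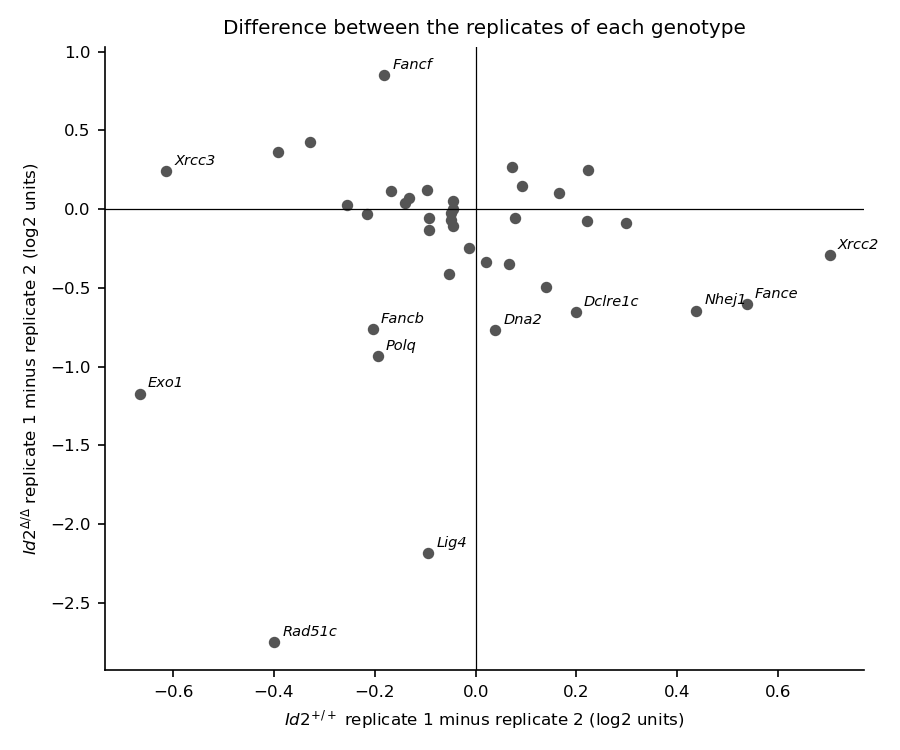
Replicate 1 minus replicate 2 in *Id2*+/+ HSCs (horizontal axis, log2 units) against the same difference in *Id2*Δ/Δ HSCs (vertical axis, log2 units), 1 point per gene, with genes beyond 0.5 on either axis named. *Rad51c* and *Lig4* lie below -2 on the vertical axis, *Exo1* is negative on both axes, and *Fancf* is the named gene farthest above 0.

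**Figure D5:**
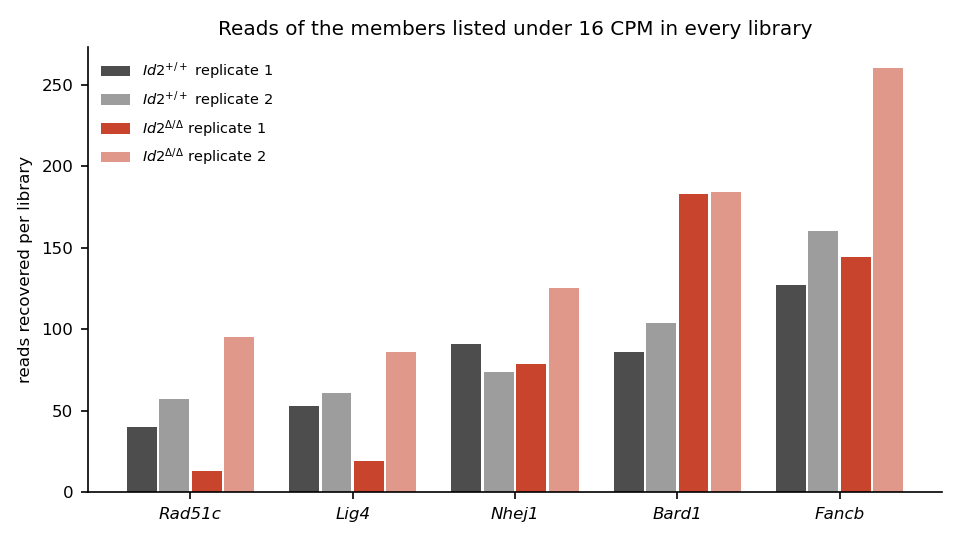
Reads recovered per library, not scaled for depth (vertical axis, starting at 0) for the 5 members listed under 16 CPM in every library; grey bars are *Id2*+/+ and red bars *Id2*Δ/Δ libraries, with replicate 2 in the paler shade. In *Bard1* both red bars exceed both grey bars, while in *Rad51c* and *Lig4* the red bars are the shortest and the tallest of the 4.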

How the data were processed

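RNA from sorted HSC pools was sequenced in 4 libraries. The library kit and its strandedness are not given in the sources used here. The authors deposited log2 values of normalized CPM for 19354 genes, and back-transformed columns sum to between 999980 and 999996. In 88.4% of sorted ranks the 4 columns lie within 0.1 of each other, which is how quantile-normalized values look. The submitters' processing notes list CASAVA 1.8.4, Trimmomatic 0.30, TopHat2 2.0.8, RSEM and STAR with the builds mm9 and NCBIM37, without roles. Positions, lengths and overlaps came from GENCODE M21 (GRCm38), whose Ensembl identifiers covered 99.7% of genes, and the longest transcript stood for a gene's length.

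Log2 values were compared as deposited, without a pseudocount, with limma 3.58.1 in R 4.3.3 (a two-sided moderated test on genotype alone with an intensity trend, adjusted by Benjamini-Hochberg over the 15895 genes averaging 1 CPM or more). An exact permutation of 2 against 2 libraries cannot give a p under 0.333. Under 16 CPM the rank of a distinct value within a library was read as its number of reads, and the depth was the median of (reads + 0.5) / CPM between log2 values of 1 and 4. Both steps were tested on simulated data. Values above that limit carry no read numbers, so no count model was run. Intervals on reads are exact (Clopper-Pearson).

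The 39 members and all lists were chosen with earlier results of these data known. Every member is named, and values in each library with the full test are given for those whose genotypes do not overlap with a log2 fold change of at least 0.25 in size, or that are among the 5 smallest p-values. For other members the values printed were chosen after they were seen. Promoter windows are of RefSeq (GRCm38.p6) and matched 31 of the 39 by symbol. Alternatives varied the filter, pseudocount, scaling, trend, replicate number, transcript length and libraries.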

Additional observations from a re-analysis of the deposited data

How the results depend on the processing

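The number of genes called over all tested genes was 0 in every fit but the replicate block, which called 1 gene, no member. Same-numbered libraries had deviations correlated at 0.0592 over all tested genes and at 0.139 over the 7332 above 32 CPM, and the labels do not tie a number to an experiment, so the block was not the main fit. The members with an unadjusted p-value under 0.05 numbered 3, and 1 with a filter of 10 CPM, where *Bard1* is filtered out and *Xrcc4* passes the filter but not the test. The block gave 2, *Rbbp8* and *Dclre1c*, and the pseudocount 2, *Rbbp8* and *Bard1*. Each pair was 5.13% of the members, beside 5.82% and 4.98% of all tested genes in those fits. The 1 member with the filter of 10 CPM was 2.86% of the members left, beside 4.82% of all genes passing it. Leaving out each library in turn gave 0 to 7, the 0 and the 1 arising when *Id2*+/+ replicate 1 or replicate 2 was dropped, and the 7 (17.9%) when *Id2*Δ/Δ replicate 2 was. In these 3 fits 1.23%, 1.55% and 15.8% of all tested genes were under 0.05. Without *Id2*Δ/Δ replicate 1 the log2 fold changes of *Rbbp8*, *Bard1* and *Xrcc4* were 0.68, 0.70 and 0.42. In those fits the lone library of a genotype is assumed to vary like the others. The members' median moved between -0.048 and 0.135. Of 24 members followed through 12 alternatives, 271 of 285 log2 fold changes kept their direction and 14 reversed. The 24 include the 14 without overlap, whose sign no omitted library can turn, and of all 39 members 19 kept their sign in every fit that left out a library. The share of all tested genes that did so was not determined. *Exo1*, with a difference near 0, became 0.001 with a pseudocount of 1 CPM and 0.101 with length correction, with or without the block, and *Trp53bp1* became 0.039 with length correction, with or without the block. With each library left out, *Rad51c* ranged from -1.953 to 0.795, *Lig4* from -1.765 to 0.417, *Exo1* from -0.586 to 0.585, *Polq* from -0.795 to 0.136, *Dna2* from -0.278 to 0.489, *Fancb* from -0.184 to 0.579 and *Parp1* from -0.065 to 0.027. The causes were not tested. Rescaling by median ratios shifted log2 fold changes by -0.0129. Below 3 reads, or 0.165 to 0.207 CPM, a transcript could not be told from absence.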
